A study of Mus musculus and Rattus norvegicus with 96 samples.

Results

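Heat shock proteins are molecular chaperones that bind unfolded or newly made proteins, keep them from aggregating and help them to fold. Under heat, oxidants or aldehydes the transcription factor HSF1 is released from its chaperones and drives a fast rise in the transcripts of the inducible members, while other members are made at a steady high level in every cell. The 10 genes described here were chosen by name, not by their values, out of 24543 genes of a mouse liver count table. They are the inducible HSP70 pair Hspa1a and Hspa1b, the constitutive HSP70 Hspa8, the inducible cytosolic HSP90 Hsp90aa1, the HSP40 co-chaperones Dnajb1 and Dnaja1, the HSP110 nucleotide exchange factor Hsph1, the small heat shock protein Hspb1, and the mitochondrial chaperonin Hspd1 with its co-chaperonin Hspe1. All 10 had counts and passed the filter on low values that left 13370 genes for testing.

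The mouse livers came from 12 male B6C3F1 mice of 10 to 11 weeks, 6 given 600 ppm phenobarbital (PB) in the drinking water for 7 days and 6 given plain water (Con). PB is a drug that induces liver enzymes through a nuclear receptor. Each liver gave 4 preparations: fresh-frozen (FR), put directly into 10% formalin and embedded in paraffin (FFPE), frozen first and then fixed in formalin and embedded (FR>FFPE), and frozen first, then fixed in 70% ethanol and embedded (FR>OH). The preparations differ in freezing and in fixative, and the comparison asks whether heat shock transcripts differ in tissue that met formalin while fresh. The same gene symbols were read in TempO-Seq tables, where pairs of detector oligos are ligated on the RNA and counted, of liver from male F344 rats and lung from male WKY rats (18 libraries each, vehicle controls, in FR, FR>FFPE and FFPE groups of 6, the lung FFPE group after 1 year in formalin), and of AML12, a non-tumour hepatocyte line from a male CD-1 mouse, put into formalin of 0.006%, 0.03% or 0.1% or vehicle for 10 min (3 libraries each).

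Counts on genes per mouse library ranged from 11737338 to 13702672 (FR), from 4952797 to 6760422 (FFPE), from 5534973 to 10681783 (FR>FFPE) and from 8167321 to 11539022 (FR>OH). The median share of reads that fell on genes was 48.2%, 25.5%, 37.3% and 38.6%, in the same order. Rn45s, the ribosomal precursor RNA, which is part of the column total, took 0.421 to 1.31%, 8.13 to 12.8%, 2.23 to 5.13% and 2.46 to 6.82% of counts. All 7 hepatocyte markers had counts, and their summed level had medians of 75000, 34400, 53800 and 60300 CPM (counts per 1e+06 counts of the column total) in the Con groups, again in that order, with 57500, 29500, 39200 and 45000 in the PB groups. Cyp2b10, the textbook PB target, was at 1080 CPM or above in every PB library and at 2.45 CPM or below in every Con library. The Con medians of the summed Kupffer cell markers (5 of 5 with counts) were 310, 181, 211 and 196 CPM. Those of the stellate cell markers (5 of 5) were 396, 259, 386 and 257. Other lists had FFPE medians above FR. The liver endothelium markers (5 of 5) were at 313, 357, 304 and 216, and the smooth muscle markers (4 of 4) at 9.9, 14.4, 7.39 and 5.57. The part of these markers and of Rn45s in the results below was not tested, and in bulk tissue fewer cells of a type and less RNA per cell cannot be told apart. FR RNA was extracted with another reagent than the embedded tissue, and the preparations ran on overlapping but different sequencing lanes (FFPE on 1 and 2, FR on 2 and 3, FR>FFPE on 3 and 4, FR>OH on 4 and 5). Extraction and preservation therefore cannot be told apart. Treatment followed the lanes too: all 6 Con libraries of FR>FFPE ran on lane 3 and all 6 PB libraries on lane 4, all 6 FR Con on lane 2 with 4 of 6 FR PB on lane 3, and all 6 FR>OH PB on lane 5 with 3 of 6 Con. All 6 FFPE Con and 4 of 6 FFPE PB ran on lane 1.

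Sequences before the gene starts are shown because heat shock factor binds repeats of the block GAA and its reverse, and because the inducible pair can hardly be told apart by sequence. RefSeq windows (GRCm38.p6, 250 bases before to 50 after a start) were at hand for 8 of the 10 genes, 13 windows in all. Of these 8 genes, 7 held GAANNTTC or TTCNNGAA, a spacing of inverted blocks, in at least 1 window. Both motifs read the same on both strands. That spacing occurred in 15.1% of all 32851 mouse windows, a share per window, while the 7 counts genes with any window that held it. The longer form with 1 more block (GAANNTTC followed by NNGAA, or TTCNNGAA followed by NNTTC) was found for Hsph1, Hspd1 and Hspe1 and in 0.603% of all windows. The windows of Dnajb1 held neither form. Below, capitals mark the inverted blocks. The first pair are the 200 bases before Hspa1a (chr17:34972157-34972356, minus strand) and Hspa1b (chr17:34959239-34959438, minus strand), which were the same at 199 of 200 positions (99.5%), and over the whole windows 296 of 300 bases were the same.
Hspa1a: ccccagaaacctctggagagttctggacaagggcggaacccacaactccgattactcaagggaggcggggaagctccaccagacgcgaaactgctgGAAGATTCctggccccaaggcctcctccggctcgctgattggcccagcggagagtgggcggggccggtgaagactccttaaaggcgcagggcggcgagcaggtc
Hspa1b: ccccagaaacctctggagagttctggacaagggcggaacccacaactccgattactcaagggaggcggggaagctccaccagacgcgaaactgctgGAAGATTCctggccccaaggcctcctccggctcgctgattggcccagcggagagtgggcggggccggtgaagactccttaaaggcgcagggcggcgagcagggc
The 150 bases before Hspb1 (chr5:135887769-135887918, plus strand) held the block pair at 2 places.
Hspb1: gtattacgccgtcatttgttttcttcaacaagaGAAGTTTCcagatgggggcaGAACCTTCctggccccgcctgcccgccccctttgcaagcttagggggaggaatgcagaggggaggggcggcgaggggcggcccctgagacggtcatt
Hspd1 and Hspe1 are divergent neighbours with 215 bases between their starts, and 1 run of blocks lies in the windows of both (chr1:55088053-55088082, shown on the strand of Hspe1).
Hspe1: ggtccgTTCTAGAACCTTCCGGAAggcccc
The count table placed the genes on mm10 at chr17:34969359-34972157 (Hspa1a, minus), chr17:34956429-34959239 (Hspa1b, minus), chr9:40801273-40805200 (Hspa8, plus), chr12:110691036-110696396 (Hsp90aa1, minus), chr8:83608175-83612654 (Dnajb1, plus), chr4:40722468-40734966 (Dnaja1, plus), chr5:149616845-149636337 (Hsph1, minus), chr5:135887919-135889564 (Hspb1, plus), chr1:55077834-55087933 (Hspd1, minus) and chr1:55088148-55091318 (Hspe1, plus). Reads were summed over the exons of each gene.

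Compared per kilobase of the annotated transcript in FR Con, Hspa8 stood highest at 275 CPM per kb, followed by Hspd1 at 97.1, Hsp90aa1 at 66.2, Hspe1 at 59.6, Dnaja1 at 23.7, Hsph1 at 13.4, Dnajb1 at 4.92, Hspb1 at 4.77, Hspa1b at 2.48 and Hspa1a at 0.264. The neighbours Hsp90aa1 and Hspe1, and Dnajb1 and Hspb1, lay within 1 SD of each other. The inducible HSP70 genes, which define an acute heat shock response, were thus the lowest of the set in frozen liver, and the constitutive Hspa8 the highest.

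**Figure D1:**
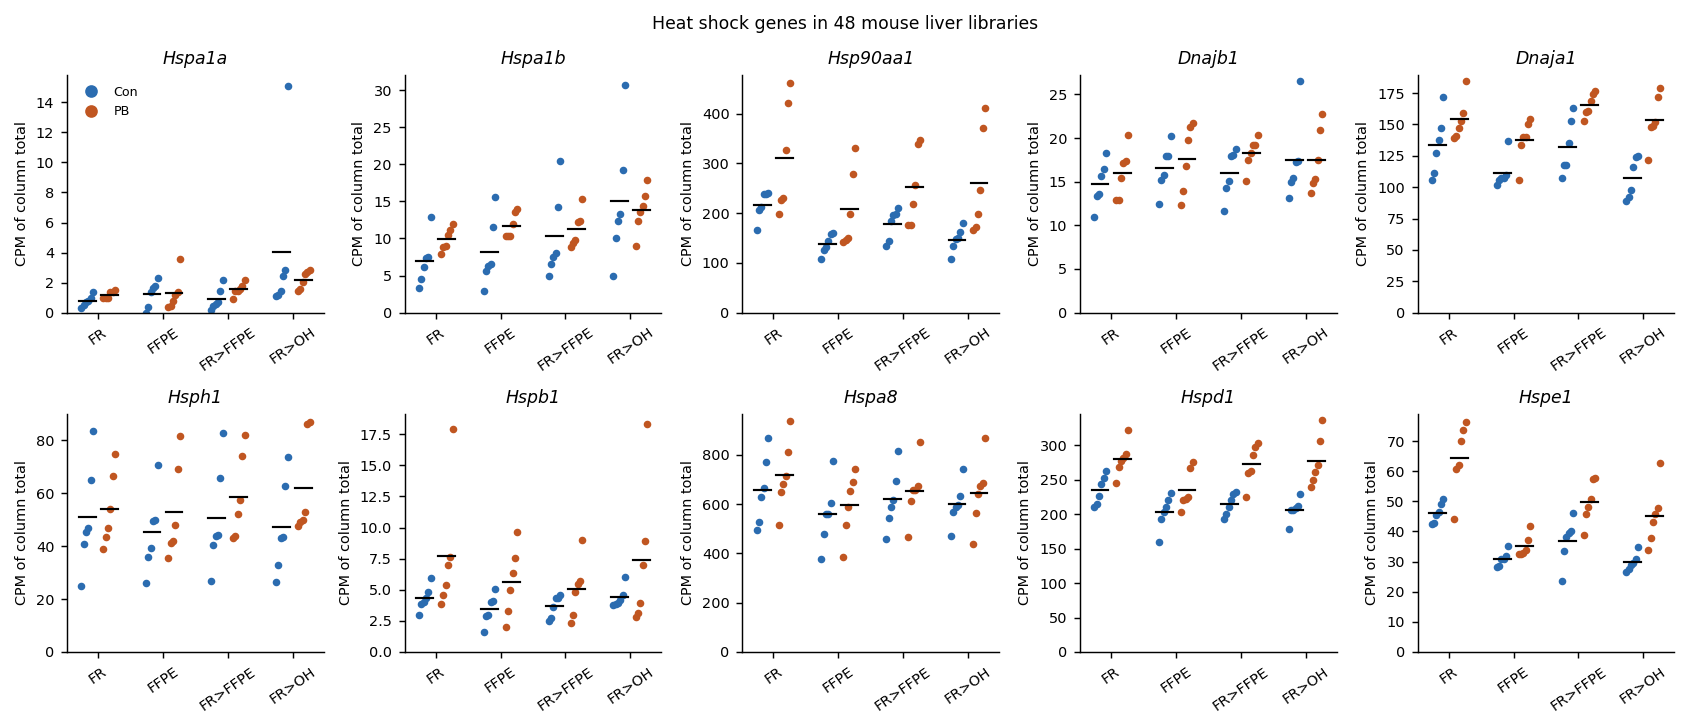
Level of each gene in CPM of the column total (linear axis from 0) in 48 mouse liver libraries, by preparation and treatment (blue Con, orange PB; each point is 1 mouse, black lines are group means). Hspe1 in FFPE lies below every FR library (28.2 to 41.7 against 42.6 to 76.4 CPM), and the Hspa1a panel is stretched by 1 FR>OH Con library at 15.1 CPM.

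In directly fixed liver none of the 10 heat shock transcripts passed the test as higher than in frozen liver, over Con and PB mice weighted equally, and 4 were lower: Hspe1, Hsp90aa1, Hspd1 and Dnaja1. Hspe1, which caps the mitochondrial folding chamber, fell to 0.604 of its FR level, and Hsp90aa1, the inducible HSP90, to 0.651. The inducible HSP70 genes Hspa1a and Hspa1b did not pass the test in either direction. Among all 13370 genes 70.3% passed, 17.3% as lower, and the median log2 fold change of all genes was 0.32, so a heat shock gene with no change in CPM had fallen behind the typical gene.

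Hspe1 ran from 42.6 to 76.4 CPM in FR with a median of 49.9, and from 28.2 to 41.7 in FFPE with a median of 32.4 (12 mice each). The ranges did not overlap, and every mouse was lower in FFPE than in its own FR sample. The log2 fold change in edgeR's quasi-likelihood test was -0.73 (SE 0.09, adjusted p = 7.96e-10), or -1.05 relative to the median gene. Hsp90aa1 ran from 166 to 461 CPM in FR (median 235) and from 108 to 330 in FFPE (median 148). These ranges overlapped, but 12 of 12 mice were lower in FFPE, with a log2 fold change of -0.62 (SE 0.16, adjusted p = 4.94e-04, edgeR). Hspd1, the folding chamber itself, had medians of 258 CPM in FR and 221 in FFPE, was lower in 12 of 12 mice, and changed by -0.23 (SE 0.06, adjusted p = 1.09e-03, edgeR). Dnaja1, a co-chaperone that hands clients to Hspa8, had medians of 144 and 122 CPM and was lower in 11 of 12 mice, with a log2 fold change of -0.21 (SE 0.08, adjusted p = 0.0138, edgeR).

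The other 6 genes did not pass the edgeR test in FFPE, whose fit held no term for the mouse. Hspa8 came nearest, with a log2 fold change of -0.25 (SE 0.12, adjusted p = 0.0529, edgeR) and a lower level in 11 of 12 mice. Hspb1, which binds unfolded proteins without ATP, was at 2.97 to 17.9 CPM in FR and 1.58 to 9.61 in FFPE, and Hsph1 at 24.9 to 83.4 and 26.2 to 81.5. The log2 fold changes were -0.38 for Hspb1, -0.10 for Hsph1, 0.16 for Dnajb1, 0.25 for Hspa1b and 0.37 for Hspa1a. The signs of Hspa1b, Hspa1a and Dnajb1 depend on the library size used: divided by TMM factors they were -0.03, 0.10 and -0.13, and divided by total reads -0.69, -0.56 and -0.79. Over the 10 genes the median was -0.22 by column total, -0.50 with TMM and -1.17 by total reads, beside 0.32, 0.04 and -0.63 for all genes. By column total 7084 genes were called higher and 2313 lower, with TMM 4561 and 4185, and by total reads 877 and 9451.

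With the mouse as a block in the fit, 7 of the 10 genes were lower in FFPE (76.5% of all genes passed): Hspa8, Hspb1 and Hsph1 joined the 4. With a term for the lane, which FFPE and FR share in part, 2 were called (42.8% of all genes), Hspe1 at -0.79 and Hspd1 at -0.40, while Hsp90aa1 at -0.34 (adjusted p = 0.396, edgeR) and Dnaja1 at 0.04 were not. Lane 2 is the only lane they share, and on the FFPE side it held PB mice 75C and 80B alone. The difference between lanes 1 and 2 thus rests on those mice against the other FFPE PB mice. Lane and mouse cannot be told apart in that term. The study's rule for a differentially expressed gene, an adjusted p under 0.05 and a change of 2-fold or more, was applied in Con and PB mice alike. With total reads, the study's own scaling, 6 of the 10 passed as lower in FFPE against FR (22.5% of all genes passed): Dnaja1, Hsp90aa1, Hspa8, Hspb1, Hspd1 and Hspe1. With the column total none of the 10 passed against FR, where 10.8%, 3.98% and 2.56% of all genes did, with FFPE, FR>FFPE and FR>OH in turn.

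Where the liver was frozen before formalin, only Hspe1 passed, and again as lower. Hspe1 had a median of 42.9 CPM in FR>FFPE (23.5 to 57.8), and 12 of 12 mice were lower than in FR, with a log2 fold change of -0.34 (SE 0.09, adjusted p = 5.54e-04, edgeR). In this comparison 65.4% of all genes passed, 8.93% as lower, and the all-gene median was 0.34. Hsp90aa1 was also lower in 12 of 12 mice (median 197 CPM), at -0.29 (adjusted p = 0.0933, edgeR). The other 8 genes had log2 fold changes from -0.41 for Hspb1 to 0.37 for Hspa1b. With the mouse as a block 6 were called (73.8% of all genes), Hspa1b as higher (0.36) and Hsp90aa1, Hspa8, Hspb1, Hspd1 and Hspe1 as lower. With TMM factors 6 were called too, all lower (52.3% of all genes), and Hspa1b was at 0.06.

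Directly compared, FFPE was below FR>FFPE for Hspe1 at -0.38 (SE 0.09, adjusted p = 9.17e-04, edgeR) and for Dnaja1 at -0.26 (SE 0.08, adjusted p = 0.00862, edgeR), the 2 genes called of 10, both lower. All genes passed at 29.2%, 17.4% as lower. Both preparations were formalin-fixed and embedded, and they differ in whether the tissue was frozen first. They also shared no lane (FFPE on 1 and 2, FR>FFPE on 3 and 4). By the paper's methods, FR>FFPE was a portion of the frozen sample, while the FFPE piece was fixed at collection. Freezing, lane and piece of tissue cannot be told apart here. With the mouse as a block 6 genes were called, with Hsp90aa1, Hspd1, Hspa8 and Hsph1 added, all lower (43.6% of all genes).

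In ethanol-fixed tissue the inducible HSP70 pair was higher than in frozen tissue by edgeR with the column total, and neither gene was called by limma on the authors' log2 CPM, at 1.00 (adjusted p = 0.444) and 0.42 (adjusted p = 0.147). Hspa1a ran from 0.278 to 1.5 CPM in FR (median 0.976) and from 1.12 to 15.1 in FR>OH (median 2.22), and Hspa1b from 3.33 to 12.9 (median 8.33) and from 4.87 to 30.7 (median 13.4). The ranges overlapped, but each gene was higher in 12 of 12 mice. The log2 fold changes were 1.62 for Hspa1a (SE 0.36, adjusted p = 1.98e-04, edgeR) and 0.80 for Hspa1b (SE 0.22, adjusted p = 1.78e-03, edgeR), where 54.9% of all genes passed, 41.7% as higher and 13.3% as lower, and the all-gene median was 0.18. Mouse 8A stood highest for both, and without it the changes were 1.09 (adjusted p = 0.00259) and 0.58 (adjusted p = 0.0138, edgeR). Split by treatment, Hspa1a was called in Con at 2.32 (adjusted p = 2.95e-04, edgeR), and in PB it was at 0.92 (adjusted p = 0.157, edgeR), where 1 of the 10 genes was called, as lower (38.7% of all genes). Blocking by mouse, 5 of the 10 were called in PB (52.8% of all genes), Hspa1b at 0.49 among them (adjusted p = 0.0290, edgeR), and Hspa1a was at 0.90 (adjusted p = 0.0556, edgeR). By total reads Hspa1b, at 0.47, no longer passed (adjusted p = 0.0667, edgeR).

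In the same tissue Hspe1 was at 26.5 to 62.7 CPM (median 34.3) and Hsp90aa1 at 108 to 412 (median 169), and both were lower than in FR in 12 of 12 mice. Their log2 fold changes were -0.57 (SE 0.09, adjusted p = 2.65e-07, edgeR) and -0.41 (SE 0.15, adjusted p = 0.0240, edgeR), and Hsp90aa1 was not called without mouse 20D (adjusted p = 0.0510). The other 6 genes lay between -0.16 for Dnaja1 and 0.18 for Dnajb1. With the mouse as a block Dnaja1, Hspa8 and Hspd1 were called lower as well, 7 genes in all (65.1% of all genes).

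**Figure D2:**
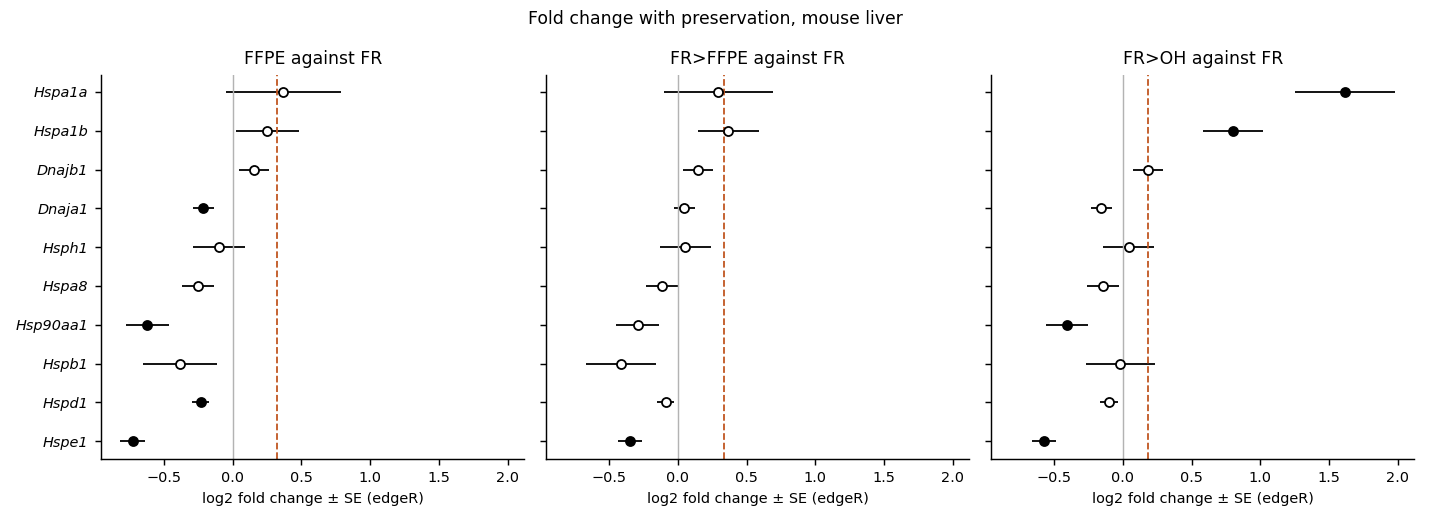
Log2 fold change against FR with its standard error (edgeR, column total as library size) of the 10 genes in FFPE, FR>FFPE and FR>OH; filled points passed at an adjusted p under 0.05, and the dashed line is the median of all 13370 genes (0.32, 0.34 and 0.18). The inducible HSP70 genes stand to the right of the line in FR>OH, and Hspe1 to the left of 0 in all 3 panels.

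Hspe1 and Hspd1 share a promoter region and work as a pair, and their ratio was lower in fixed than in frozen tissue, a description without a test. The log2 ratio of Hspe1 to Hspd1 averaged -2.24 in frozen tissue (SD 0.18, n = 12), and -2.73 (SD 0.18), -2.51 (SD 0.20) and -2.72 (SD 0.18) after FFPE, FR>FFPE and FR>OH. In each of the 3 it was below the FR ratio of the same mouse in 12 of 12 mice. The annotated transcripts differ in length, 774 bases for Hspe1 and 2423 for Hspd1, and the part of length was not tested.

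Because Hspa1a and Hspa1b are near-identical, the counting had to divide most of their reads between them. Only 3.12% of their deposited counts were whole numbers, against 87.2% of all counts above 0, and Hspa1a took a median of 11% of their sum in frozen tissue, with 11.9%, 9.55% and 15.2% after FFPE, FR>FFPE and FR>OH. The single-gene values are therefore uncertain. Their sum does not depend on the division within the pair, but it was whole in only 4 of 48 libraries (within 1e-06), so it is itself an estimate. The sum had a median of 9.41 CPM in FR (3.61 to 13.6). In the fixed preparations its medians were 11.6 (FFPE, 3.34 to 17.9), 11.4 (frozen before formalin, 5.46 to 21.9) and 15.6 (frozen before ethanol, 6.03 to 45.8), and all ranges overlapped with FR. On log2(CPM + 0.5) it was above the same mouse's FR sample by 0.80 ± 0.72 in FR>OH (SD, n = 12, higher in 12 of 12, exact sign-flip permutation test, two-sided, Holm p = 0.00146, the smallest it can give). It was above by 0.33 ± 0.34 in FR>FFPE (11 of 12, exact permutation, Holm p = 0.00293) and by 0.21 ± 0.33 in FFPE (11 of 12, exact permutation, Holm p = 0.0542). The last pair turned with the library size: with TMM factors they were 0.03 and -0.06, and by total reads -0.04 and -0.63, while FR>OH stayed above at 0.63 and 0.46. Within 6 mice of 1 treatment the smallest Holm p this test can give is 0.0938.

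The mice differed from each other in heat shock levels, and most of those differences were found again in each preparation of the same liver. Hsph1, which frees ADP from HSP70, ranged among the 12 FR samples from mouse 8A at 24.9 CPM to mouse 90C at 83.4, while its preparation means hardly moved: the SD between mice within a treatment was 0.47 on the log2 scale and that between preparations 0.07. For Hspe1 the order was opposite, 0.17 between mice and 0.31 between preparations. Against FR, Hsph1 correlated over 12 mice with r = 0.93 in FFPE (permutation p = 0.00003, adjusted 0.00018) and rho = 0.90 (permutation p = 0.00011, adjusted 0.0010). In FR>FFPE r was 0.97 and in FR>OH it was 0.92. Without the 2 farthest mice, 8A and 90C, r was 0.89, 0.94 and 0.88, and within the 6 Con and 6 PB mice the FFPE values were 0.96 and 0.95 (exact permutation p = 0.00833 and 0.00417). Hsp90aa1 gave r = 0.96, 0.95 and 0.97, and 0.86, 0.84 and 0.88 without mice 20B and 80B.

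Of the 30 such relations (10 genes in 3 preparations), 22 had a Benjamini-Hochberg adjusted permutation p under 0.05 for r and 21 for rho. The permutation test was not run over all genes, so these counts have no all-gene share beside them. They do not show a trait of heat shock genes. The 8 that did not were all 3 of Hspa1a and of Dnajb1, Hspa1b in FR>OH (r = 0.36) and Hspb1 in FFPE (r = 0.58). The relations of Hspb1 rested on mice 20B and 20D, without which r was 0.09, 0.48 and 0.28. The permutation ran over all 12 mice, so a PB difference shared by both preparations is counted in r. Within the 6 Con mice r was above 0 for 8, 10 and 9 of the 10 genes in FFPE, FR>FFPE and FR>OH. Within the 6 PB mice it was so for 9, 9 and 10. These counts, too, were not taken over all genes. Hspe1 in FFPE had 0.21 in Con and 0.49 in PB (exact permutation p = 0.668 and 0.331). Hspd1 in FR>FFPE had 0.36 and 0.58 (exact permutation p = 0.447 and 0.199). Across the 10 genes the median r was 0.77, 0.78 and 0.87 in FFPE, FR>FFPE and FR>OH, beside 0.46, 0.50 and 0.57 over 12300 genes, a description without a test. Over all 48 libraries the genes whose log2(CPM + 0.5) was most like that of Hsph1 were Slc10a2 (r = 0.81), Creld2 (0.78), Stip1 (0.72), Atp2a2 (0.71) and Rbl1 (0.70). For the sum of Hspa1a and Hspa1b they were Pex11g (0.69), Mrps26, Nomo1 and Tmem109 (0.61 each) and Mrps34 (0.60). These 48 points share mice and lanes, and the values are a description of likeness only.

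**Figure D3:**
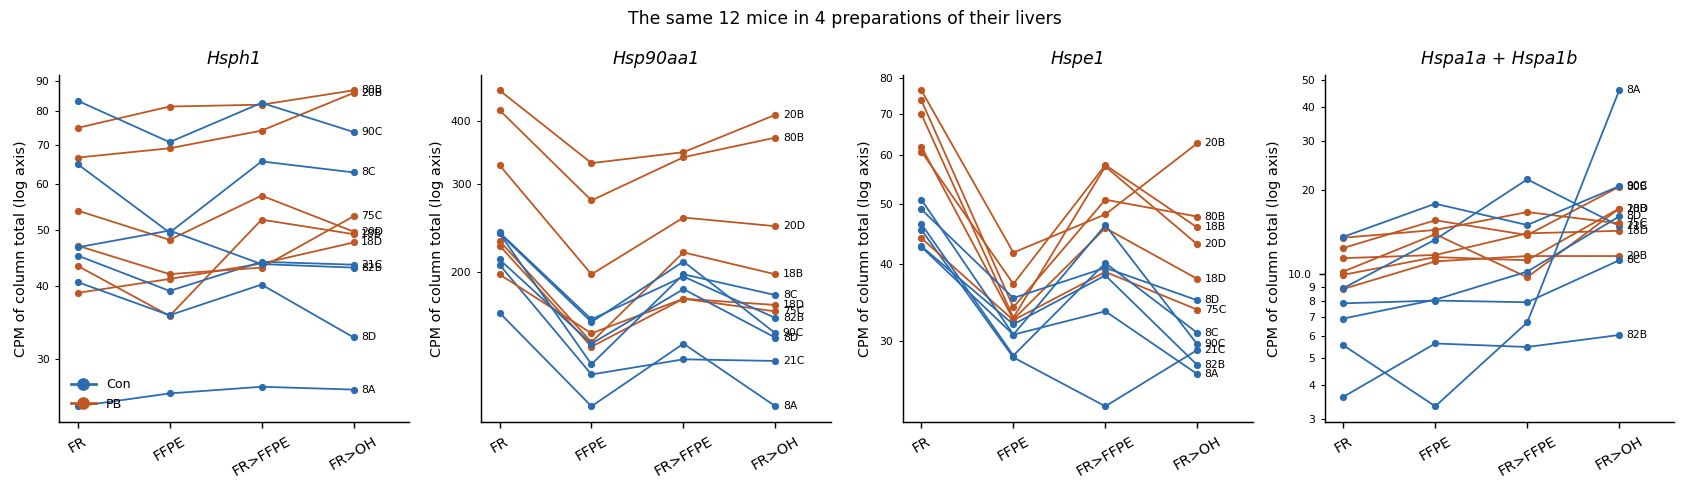
Level in CPM of the column total (log axis) of Hsph1, Hsp90aa1, Hspe1 and the sum of Hspa1a and Hspa1b in the 4 preparations, with 1 line per mouse (blue Con, orange PB, mouse names at the right). Hsph1 keeps 8A lowest in all 4 preparations (24.9 to 26.9 CPM), and in the HSP70 sum the same mouse rises to 45.8 CPM in FR>OH.

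Hspe1 was higher with PB in 3 preparations and Hspd1 in 2 of those, while the inducible HSP70 genes were called in none. In FR, Hspe1 had a median of 45.9 CPM in Con (42.6 to 50.8) and 65.9 in PB (44.0 to 76.4). Of 6 PB mice, 5 stood above every Con mouse, and the log2 fold change was 0.48 (SE 0.12, adjusted p = 0.00615, edgeR), the 1 gene called of 10. All genes passed at 8.44%, 5.85% as higher. Hspd1 was at 0.26 in FR (adjusted p = 0.0635, edgeR). In FFPE none of the 10 passed in edgeR or DESeq2 (6.63% of all genes did in edgeR, 4.64% as higher). With an unadjusted p under 0.05 in edgeR there were 3, Hsp90aa1, Dnaja1 and Hspd1. The number of all genes at that threshold is not given here, so the 3 cannot be set against it. The Hspe1 medians were 30.7 CPM in Con and 33.4 in PB, a log2 fold change of 0.19 (adjusted p = 0.465, edgeR).

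In FR>FFPE, where PB and lane cannot be told apart, Hspd1 at 0.35 (SE 0.09, adjusted p = 0.00864, edgeR) and Hspe1 at 0.43 (SE 0.12, adjusted p = 0.0230, edgeR) were higher with PB (7.21% of all genes, 6.22% as higher). Neither passed with TMM factors or by total reads, and Hspe1 was not called when any 1 of mice 18B, 20D, 21C, 80B or 8A was left out. In FR>OH, 4 of the 10 were higher with PB (12.2% of all genes, 8.41% as higher): Hspe1 at 0.60 (adjusted p = 6.02e-04), Hspd1 at 0.42 (adjusted p = 7.21e-04), Dnaja1 at 0.52 (adjusted p = 8.35e-04) and Hsp90aa1 at 0.83 (adjusted p = 0.00859), each from edgeR. Hspd1 there ran from 178 to 230 CPM in Con and 239 to 337 in PB, with no overlap, and for the other 3 genes the Con and PB ranges overlapped. Dnaja1 averaged 107 ± 16.3 CPM in Con and 154 ± 20.0 in PB (SD, n = 6), and Hsp90aa1 ran from 108 to 180 and from 167 to 412.

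These differences between preparations were themselves tested. None of the 10 genes, and none of the 13370 (0% in each), had a PB response that passed edgeR's interaction test in FFPE, FR>FFPE or FR>OH against FR, nor in DESeq2. At an unadjusted p under 0.05 in edgeR, 463, 288 and 305 of all genes did, and none of the 10. The response of Hspe1 in FFPE differed from that in FR by -0.30 (SE 0.18, unadjusted p = 0.103 in edgeR's fit), that of Dnaja1 in FR>OH by 0.31 (SE 0.15, unadjusted p = 0.0523) and that of Hspa1a in FR>OH by -1.40 (SE 0.73, unadjusted p = 0.0607). Blocking by mouse, which this within-mouse contrast allows, 1, 0 and 37 of all genes passed (0.00748%, 0% and 0.277%) and still none of the 10. At an unadjusted p under 0.05 that fit held Hspe1 in FFPE. In FR>OH it held Hsp90aa1 at 0.30 (adjusted p = 0.0747, edgeR) and Dnaja1 at 0.30 (adjusted p = 0.0901, edgeR), followed by Hsph1, Hspd1 and Hspa1b. The number of all genes at this unadjusted threshold in the blocked fit is not given here. These genes therefore cannot be set against a share of all genes. Without mouse 8A the PB change of Hspa1a in FR>OH went from -0.85 to 0.29, with neither past the threshold.

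**Figure D4:**
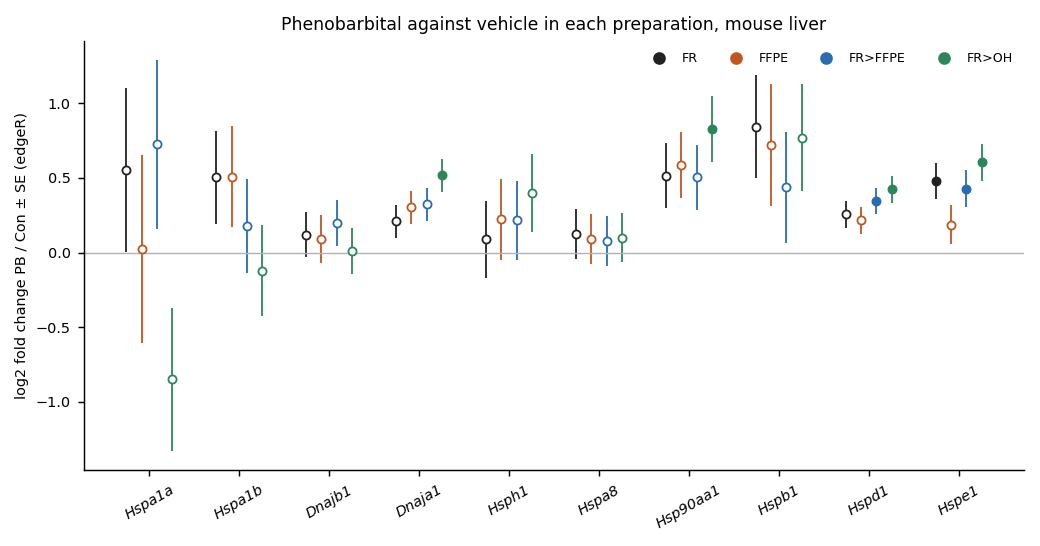
Log2 fold change of PB against Con with its standard error (edgeR) for the 10 genes in each of the 4 preparations, 6 against 6 mice; filled points passed at an adjusted p under 0.05. Hspe1 is filled in 3 preparations and open in FFPE (0.19), and the Hspa1a estimate in FR>OH (-0.85) stands apart.

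Among 101 other chaperone and related genes of 7 lists, most subunits of the cytosolic chaperonin were lower in FFPE. Most chaperones of the endoplasmic reticulum were lower too, and Hsf1 was higher. The lists were chosen with earlier results of these data known, so the counts below describe them and are not independent support. For reading the counts, 53% of all genes were called higher and 17.3% lower in FFPE, 56.5% and 8.93% in FR>FFPE, and 41.7% and 13.3% in FR>OH. Of the 14 subunits of TRiC and prefoldin, which fold actin and tubulin, 13 were lower and none higher in FFPE, with a median log2 fold change of -0.59 (-0.88 with TMM, -1.55 by total reads). Pfdn4 at -1.38 and Cct3 at -0.89 fell most. In FR>FFPE 10 were lower and in FR>OH 13. Of 15 chaperones of the endoplasmic reticulum, 12 were lower and 2 higher in FFPE (median -0.51), with Hspa5, the reticulum's HSP70, at -1.01 and Hsp90b1 at -0.84 below FR and Dnajc1 at 0.58 above it by column total but at -0.37 by total reads. Hyou1, at 0.21, turned to -0.07 with TMM. In FR>FFPE 7 of the 15 were lower and in FR>OH 6.

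Of the 7 genes of HSF1 and its regulators, 4 were higher in FFPE and 1 lower. Hsf1 was at 1.27 (SE 0.10, adjusted p = 2.30e-15, edgeR), and stayed above FR with TMM (0.99) and by total reads (0.32). It was at 0.85 in FR>FFPE and 0.83 in FR>OH. Hsf2 was at 0.02 in FFPE and not called. Hsf4 was at 0.91, turning to -0.03 by total reads, and Hsbp1, an HSF1-binding protein, at -0.21. Of 10 mitochondrial chaperones and protease subunits with counts, 6 were lower and 3 higher. Trap1, the mitochondrial HSP90, at -0.51 and the protease subunit Clpp at -0.49 were lowest. Grpel2 at 0.56 and Dnaja3 at 0.30 were highest, and they turned to -0.38 and -0.65 by total reads.

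The 3 remaining lists moved both ways in FFPE. Of 19 further stress-inducible chaperone genes tested, 4 were higher and 5 lower, led by Hspb6 at 0.97 and Zfand2a at 0.81 (-0.13 by total reads), and by Stip1, which links HSP70 to HSP90, at -0.41 and Serpinh1 at -0.35. Of 21 HSP70 co-chaperones and HSP70 relatives, 11 were higher and 3 lower, shares near those of all genes. Dnajb5 at 1.32 and the HSP70 relative Hspa12b at 1.03 stood against the relative Hspa13 at -0.73 and St13 at -0.40. Of 12 genes of HSP90 and its co-chaperones, 5 were higher and 4 lower, with Fkbp5 at 0.70 and Sgta at 0.68 (-0.25 and -0.27 by total reads) against Ahsa1, which speeds the HSP90 ATPase, at -0.41 and Ppid at -0.39. The medians of these lists were -0.10, 0.18 and 0.08 by column total and -0.39, -0.10 and -0.20 with TMM.

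In rat TempO-Seq, 4 of the 10 symbols had counts, Hsp90aa1, Dnajb1, Hspb1 and Hspd1, and the other 6 were listed at 0 in every library. Hspd1 was lower in every fixed group of both tissues with TMM factors, and by total counts in all but liver FFPE. Libraries held 139475 to 3970187 counts in liver and 226751 to 2505947 in lung, and 1 lung FR library with a total of 12 counts was left out, which leaves 5. The labels do not tie libraries to separate animals, so p-values here measure the spread between libraries, which may be technical. Gene levels below are CPM with TMM factors, and sums of markers are CPM of total counts. The liver label held (the 6 hepatocyte markers present summed to at least 98500 CPM), and in lung the same markers summed to 57.8 to 1910 CPM, but the 5 lung epithelium markers were listed at 0 in every library, so the lung label could not be checked by them.

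In rat liver Hspd1 ran from 2780 to 4320 CPM in FR (median 3260), 606 to 1140 in FFPE (median 868) and 657 to 1450 in FR>FFPE (median 924). Neither fixed group overlapped FR, and the log2 fold changes were -1.96 (SE 0.20, adjusted p = 3.60e-09, edgeR) and -1.82 (SE 0.20, adjusted p = 3.96e-08, edgeR). Divided by total counts instead, where the all-gene median was 1.97 and 1.08 in place of 0.35 and 0.37, they were -0.32 (adjusted p = 0.0764, edgeR) and -1.10 (adjusted p = 7.62e-06, edgeR). Hspb1 moved the other way, from 27.6 to 49.2 CPM in FR (median 35.3) to 47.3 to 101 in FFPE (median 63.9) and 59.3 to 274 in FR>FFPE (median 92.5). Its FR>FFPE libraries all lay above FR, with log2 fold changes of 0.91 (SE 0.31, adjusted p = 0.00934, edgeR) and 1.85 (SE 0.30, adjusted p = 7.12e-06, edgeR). Smooth muscle markers, 4 of 4 with counts, summed to 29.5 to 95.6 CPM in FR, 106 to 320 in FFPE and 42.3 to 367 in FR>FFPE. Cholangiocyte markers, 3 of 5 with counts, summed to medians of 5.81, 53.5 and 23.4 CPM in that order, and the 1 stellate cell marker with counts had medians of 19.4, 32.2 and 39.4. The part of these cells in Hspb1 was not tested.

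Hsp90aa1 in rat liver was at 168 to 187 CPM in FR, 67.1 to 121 in FFPE and 147 to 176 in FR>FFPE. FFPE lay below FR without overlap at -0.90 (SE 0.16, adjusted p = 1.31e-05, edgeR), but by total counts the change turned to 0.77 (adjusted p = 0.00147, edgeR). Dnajb1 was not called at 0.22 in FFPE, and it rested on 17 to 47 counts per FFPE library. In all, 3 of 4 genes passed in FFPE (79.7% of 2281 genes), 2 of 4 in FR>FFPE (71.3%), and 2 of 4 between FFPE and FR>FFPE (53.9%), where Hspb1 at -0.94 and Hsp90aa1 at -0.76 were lower.

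In rat lung Hspd1 ran from 1720 to 2550 CPM in FR, 450 to 727 after 1 year in formalin and 628 to 1130 in FR>FFPE. Neither fixed group overlapped FR with TMM factors or by total counts, and the log2 fold changes were -1.95 (SE 0.18, adjusted p = 8.07e-09, edgeR) and -1.44 (SE 0.17, adjusted p = 2.40e-07, edgeR), or -1.20 and -0.74 by total counts. Hsp90aa1 was at 372 to 499 CPM in FR, 269 to 346 in FFPE and 503 to 694 in FR>FFPE, below FR in the former at -0.49 (SE 0.12, adjusted p = 0.00130, edgeR) and above it in the latter at 0.53 (SE 0.12, adjusted p = 6.17e-04, edgeR). By total counts the first turned to 0.26. Dnajb1 at -0.64 and Hspb1 at -0.69 were lower in FR>FFPE, and by total counts both were near 0 (0.06 and 0.02). Thus 2 of 4 passed in FFPE (75.5% of 2322 genes), 4 of 4 in FR>FFPE (77.4%) and 2 of 4 between the fixed groups (31.1%), where Hsp90aa1 at -1.02 and Hspd1 at -0.51 were lower after 1 year in formalin.

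**Figure D5:**
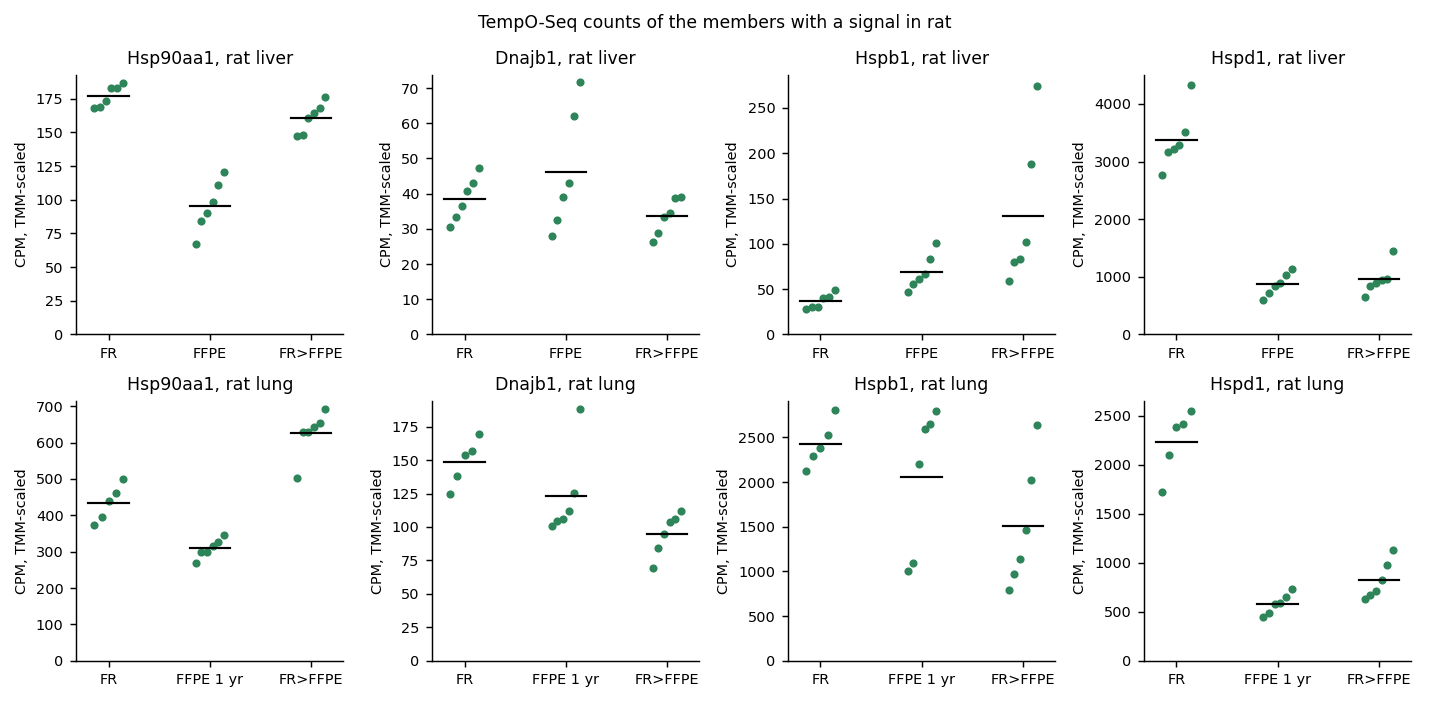
CPM with TMM factors (linear axis from 0) of the 4 genes with counts in rat liver (upper row) and rat lung (lower row), by preparation; points are libraries (6 per group, 5 in lung FR) and black lines are group means. Hspd1 is below FR in both fixed groups of both tissues.

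In AML12 cells exposed for 10 min to dilute formalin, 1 of the 5 heat shock genes tested differed from vehicle, at the highest dose. Of the 10 symbols 7 had counts, and Dnaja1, Hspa8 and Hspe1 were listed at 0. Hsp90aa1 was at 6500 to 7060 CPM (with TMM factors) in vehicle, 6740 to 7190 at 0.006%, 6620 to 8040 at 0.03% and 6930 to 7860 at 0.1%, and Hsph1 at 68.1 to 98.2 in vehicle and 89.5 to 108 at 0.1%. By total counts both genes lay above vehicle at 0.1% without overlap. Hsp90aa1 was then at 7690 to 8420 CPM against 6320 to 6590, and Hsph1 at 101 to 118 against 63.5 to 94.3. With that scaling 0 of the 5 genes passed (23.2% of all genes), and the all-gene median was 0.20. At an unadjusted p under 0.05 in edgeR there were 2 of the 5, beside 566 of 1570 genes. Hspa1a and Hspa1b had at most 8 counts in any library, under the filter, so they were not tested. A small change could not be measured at such counts. Hspa1a had 4 to 6 counts per library in vehicle and 4 to 5 at 0.1%, and Hspa1b 0 to 4 and 0 to 3. The gene called at 0.1% (where 19.3% of 1570 genes passed) was Hspb1, at 245 to 285 CPM against 356 to 393 in vehicle without overlap, with a log2 fold change of -0.51 (SE 0.15, adjusted p = 0.0220, edgeR). It no longer passed by total counts, or when any 1 of 4 of the 6 libraries was left out. At 0.03% and 0.006% no gene at all passed in edgeR (0%, with 62 and 28 genes at an unadjusted p under 0.05) or in DESeq2, although the Hspb1 libraries at 0.006% (397 to 496 CPM) lay above vehicle without overlap. Of the hepatocyte markers 4 of 7 had counts, Alb was listed at 0, and the labels do not say whether the 3 libraries of a group came from separate cultures.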

How the data were processed

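Mouse liver RNA was sequenced after ribosomal depletion, and the authors assigned reads to genes in Partek by an expectation-maximisation step (builds GRCm38/mm10 and rn6, STAR 2.5.3a and CASAVA 1.8.2 in the submitters' processing notes). The deposited values used here are estimated counts per gene. The authors also deposited log2 CPM, used for a limma alternative only. The TempO-Seq tables hold estimated counts and a log2 table that the authors deposited, and the TempO-Seq aligner is not given in the sources used here. Columns of the authors' own comparisons were not used.

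Estimated counts were rounded to whole numbers and tested with edgeR 4.0.16 (quasi-likelihood, R 4.3.3) in 1 fit over all groups of a table, with the column total as library size in mouse liver and TMM factors in TempO-Seq. The log2 CPM that the authors deposited were scaled by a larger number per library, taken here as total reads. Total reads are thus the study's scaling and the column total is not, and both are given. Genes entered with a geometric mean above 1 count (offset 0.0001) in mouse liver and by edgeR's filterByExpr in TempO-Seq. Contrasts against FR weight Con and PB equally. P-values were adjusted by Benjamini-Hochberg over all genes tested, with a threshold of 0.05. Likeness between mice used 100000 permutations. Alternatives were TMM factors, total reads, no filter, DESeq2 1.42.0, limma 3.58.1, the mouse as a block, a lane term and leaving out each mouse or library. Same-mouse libraries deviated together from their group means in 72 of 72 pairs (correlation over 0.1, median 0.709 against -0.127 for other mice, over 7693 genes), and the pairing comes from the animal names in the labels. No 2 libraries held identical counts. Rat and AML12 labels carry no shared animal or culture number, so no block was fitted there.

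All 10 genes were named, with Hsf1, Hsf2, the 2 largest called rises and falls of each other chaperone list in FFPE against FR, and the 5 genes most alike to Hsph1 and to the HSP70 sum. The 10 genes were set by name, while the other genes and lists were chosen with earlier results of these data known. The edgeR and sign-flip code was tested on simulated data. Motifs were searched in the RefSeq promoter windows. A rat lung library under 10000 counts was left out. Depth is the count total per library, and counting noise limits Hspa1a, at 0 counts in 1 FFPE library, most of all.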

Additional observations from a re-analysis of the deposited data

Results flagged for a closer look

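Of 104 groups of 5 or 6 libraries, 8 held 1 library that stood apart from the others of its group by more than Dixon's 95% limit, where chance flags about 5%. In mouse liver FR>OH Con, mouse 8A stood apart for 3 genes: Hspa1a at 15.1 CPM (the others 1.12 to 2.82), Dnajb1 at 26.5 CPM (13.1 to 17.4) and Hspb1 at 5.99 CPM (3.8 to 4.55). In FFPE PB, mouse 80B stood apart for Hspa1a at 3.58 CPM (0.361 to 1.38). In FFPE Con, mouse 90C stood apart for Dnaja1 at 137 CPM (102 to 110). In FR PB, mouse 20B stood apart for Hspb1 at 17.9 CPM (3.88 to 7.65). In rat lung, FR>FFPE library 60 stood low for Hsp90aa1 at 503 CPM with TMM factors (628 to 694), and FFPE 1 yr library 63 stood high for Dnajb1 at 188 CPM (101 to 125).

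Hsp90aa1 had opposite signs in the rat tissues after FR>FFPE with TMM factors, and only the lung change passed the test. In liver the log2 fold change against FR was -0.14 (adjusted p = 0.4185, edgeR). There the ranges overlapped (147 to 176 CPM against 168 to 187 in FR), with all 6 libraries below the FR mean of 177 CPM. In lung it was 0.53 (adjusted p = 6.17e-04, edgeR), with all 6 above the FR mean of 434 CPM. The difference between the tissues was not tested, and by total counts both were above FR.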

How the results depend on the processing

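With the mouse as a replicate block, the number of the 10 genes called against FR was 7, 6 and 7 (FFPE, FR>FFPE, FR>OH), and it was 6 between FFPE and FR>FFPE. Over all genes the block raised the share called in these 4 comparisons too, from 70.3%, 65.4%, 54.9% and 29.2% to 76.5%, 73.8%, 65.1% and 43.6%. Split by treatment, the block moved the genes called in these 4 comparisons from 4, 1, 5 and 0 to 6, 4, 6 and 4 in Con, and from 3, 1, 1 and 1 to 5, 4, 5 and 6 in PB. Of the split shares of all genes only FR>OH in PB is given here, 38.7% without and 52.8% with the block. PB against Con could not be blocked because each mouse had 1 treatment. Leaving out the filter changed no call or direction in 54 of 54 fold changes. Total reads gave 9, 6 and 8 genes called (FFPE and FR>FFPE against FR, FFPE against FR>FFPE), where 77.2%, 49.7% and 82.6% of all genes passed, 6 for FR>OH (53.1%) and 0 for PB in FR>FFPE. Limma on the authors' log2 CPM gave 9, 6 and 8 (77.9%, 47.7% and 83.1%), 5 for FR>OH (51.2%), all lower, and 0 for PB in FR and in FR>FFPE. TMM gave 6 in FR>FFPE (52.3% of all genes), 7 in FR>OH and 0 for PB in FR>FFPE, and DESeq2 gave 6, 7, 1 and, for PB in FR, 2. Shares of all genes are not given here for the other TMM and DESeq2 counts, nor with a mouse or library left out. Those counts cannot be read as a trait of the 10 genes. Without the FR>FFPE Con 21C library 1 was called for PB in FR>FFPE. The lane term, fitted for FFPE and FR alone, left 2 (42.8% of all genes). By total counts, and by limma on the log2 table, rat lung FR>FFPE had 2 (79.2% and 75.9% of all genes) and AML12 at 0.1% had 0 (23.2% and 0%). Leaving out 1 mouse or library gave 4 to 5, 1 and 3 to 4 called against FR, in the same order, and 2 to 4 between FFPE and FR>FFPE. For PB it gave 1 to 2 in frozen tissue and, in the order above, 0 to 1, 1 to 3 and 4 in fixed tissue, with 0 to 1 in AML12 at 0.1% and 0 at the lower doses.

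Directions that turned are given as log2 fold changes in the order TMM, total reads, DESeq2 and limma, and the cause was not tested beyond the shift of all genes. In FFPE Hspa1b was at -0.03, -0.69, -0.04 and -0.75, Dnajb1 at -0.13, -0.79, -0.13 and -0.81, and Hspa1a at -0.56 by total reads and -2.02 by limma. In FR>FFPE Hspa1a was at -0.0039, -0.07, -0.01 and -0.21, Dnajb1 at -0.16, -0.23, -0.16 and -0.23, Dnaja1 at -0.26, -0.33, -0.26 and -0.33, Hsph1 at -0.25, -0.33, -0.25 and -0.33, and Hspa1b at -0.02 by total reads and -0.03 by limma. In FR>OH Hsph1 was at -0.14, -0.28, -0.14 and -0.29, and Dnajb1 at -0.15 by total reads, -0.00017 by DESeq2 and -0.16 by limma. The lane term put Dnaja1 at 0.04, Hsph1 at 0.38 and Hspa8 at 0.10 in FFPE. The sum of Hspa1a and Hspa1b was at -0.06 in FFPE and 0.03 in FR>FFPE with TMM, and at -0.63 and -0.04 by total reads.

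In rat the values by total count and by limma were as follows. In liver FFPE Hsp90aa1 was at 0.77 and 0.73, and in liver FR>FFPE at 0.59 and 0.57, where Dnajb1 was at 0.52 and 0.50. Between liver FFPE and FR>FFPE Hsp90aa1 was at 0.18 and 0.15, Hspd1 at 0.77 and 0.81, and Hspb1 at 0.18 by limma. In lung FFPE Hsp90aa1 was at 0.26 and 0.28, Dnajb1 at 0.47 and 0.46, and Hspb1 at 0.47 and 0.41. In lung FR>FFPE Dnajb1 was at 0.06 and 0.06 and Hspb1 at 0.02 by total count.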

Other observations

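The subunits of TRiC and prefoldin, a list chosen with earlier results of these data known, also differed by treatment. With PB, 6 of the 14 were higher than Con in frozen tissue, and 1, 2 and 9 were after FFPE, FR>FFPE and FR>OH (edgeR, adjusted p under 0.05), beside 5.85%, 4.64%, 6.22% and 8.41% of all genes. Whether these numbers differ between preparations was not tested.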
